A study of Mus musculus with 16 samples.

Results

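Endothelial-type genes are genes best known from the inner lining of blood vessels, and several of them are also used by blood stem and progenitor cells. Described here are 9 of the 55487 genes in the count table, found by their symbols: Tek, Tie1, Angpt1, Nos3, Plvap, Hspa12b, Clec11a, Ctla2a and Capn2. They were chosen by their measured values: several were already known from these data to have lower counts in bone marrow leukaemia cells of doxycycline-treated mice. For that reason their values in bone marrow are given as a description with no test, and for the members only comparisons among the spleen libraries were tested.

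The cells were mouse leukaemia cells that carry CBFB::MYH11, the fusion gene of inv(16) leukaemia, and GFP, and that had received a doxycycline-inducible shRNA against MYH11. They were transplanted into congenic mice, which after engraftment drank 3 mg/ml doxycycline in 5% sucrose or 5% sucrose alone for 7 days, after which marrow or spleen was taken and cells with GFP were sorted. Control and doxycycline groups of both tissues had 3 libraries each at 7 days, and a separate cohort on doxycycline until signs of fatal disease gave 4 spleen libraries called secondary disease. The control labels name only fusion-expressing cells, whereas the design text has the shRNA construct in both arms. No group received doxycycline without the shRNA, so the drug and the knockdown cannot be told apart, and the secondary disease libraries also differ from the other groups in cohort and in time on treatment. Ages, strains, the promoter that drives the shRNA and the number of independent leukaemia clones are not given in the sources used here. Nothing states that the numbered libraries of a group came from separate animals, and p-values therefore measure only the spread between these samples.

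In vessels, Tek (also called Tie2) is the receptor tyrosine kinase for angiopoietins, Angpt1 is its activating ligand and Tie1 is a related receptor that modulates Tek signalling. The same receptor and ligand are known from haematopoietic stem cells and their marrow niche, where Tek signalling is linked to quiescence. Nos3 makes nitric oxide in endothelium, Plvap forms the diaphragms of fenestrae and caveolae, and Hspa12b is an atypical member of the HSP70 family known from endothelial cells. Clec11a is a secreted growth factor for blood progenitors and bone, Ctla2a is an inhibitor of cathepsin-type cysteine proteases, and Capn2 is the catalytic subunit of m-calpain, a calcium-dependent protease.

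The members lie on 8 chromosomes, all positions here being GRCm38 with GENCODE M21 annotation, and all are protein-coding. Tek (ENSMUSG00000006386) spans 94739289 to 94874976 on the plus strand of chromosome 4, and Tie1 (ENSMUSG00000033191) spans 118471191 to 118490061 on the minus strand of the same chromosome. Angpt1 lies at 42424723 to 42676977 of chromosome 15, Nos3 at 24364810 to 24384474 of chromosome 5 and Plvap at 71497765 to 71511752 of chromosome 8. Hspa12b lies at 131127280 to 131146321 of chromosome 2, Clec11a at 44302687 to 44306902 of chromosome 7, Ctla2a at 60934155 to 60936625 of chromosome 13 and Capn2 at 182467260 to 182517608 of chromosome 1. Only Tek and Tie1 share a chromosome, so the genes are not neighbours in the genome.

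Some of these genes share transcript sequence with others, which bears on how well reads can be assigned. Of all 50-base stretches of their annotated transcripts, none in Tek, Plvap and Clec11a occurred in another gene, and 0.121% in Tie1 and 0.38% in Hspa12b did. The share was 13.3% in Angpt1 and 23.5% in Capn2, both with an antisense gene (Gm17473 and Gm37885) that had at most 5 and 9.72 counts in any library. In Nos3 it was 20%, with the antisense Gm15587 (at most 8.03 counts) and the overlapping antisense neighbour Atg9b, which held 4.31 to 21.6 CPM (TMM-scaled counts per mega-count of library). In Ctla2a it was 25.8%, mainly with Gm49391 (at most 51.8 counts) and its paralogue Ctla2b, which starts 36.7 kb away. The sources used here do not give whether the counting used strand. Antisense reads therefore cannot be told apart, and the values of Nos3, Angpt1 and Capn2 are uncertain to that extent. Those of Ctla2a are uncertain for the sequence it shares with Ctla2b and Gm49391.

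The 250 bases before the transcript start are shown for 4 members whose levels ran together over the libraries (pairwise r from 0.84 to 0.97) and whose upstream window lies outside the annotated gene (RefSeq starts, GRCm38.p6). Capitals mark matches to 3 short words searched on both strands: TGTGGT, the core bound by RUNX factors, the DNA-binding partners of CBFB; GGAAG, a core of ETS factor sites; and AGATAA, found at the core of sites for GATA factors. The windows are chr4:94739039-94739288 (plus strand), chr7:44306960-44307209, chr13:60936626-60936875 and chr1:182517611-182517860 (minus strand), in the order shown.
Tek: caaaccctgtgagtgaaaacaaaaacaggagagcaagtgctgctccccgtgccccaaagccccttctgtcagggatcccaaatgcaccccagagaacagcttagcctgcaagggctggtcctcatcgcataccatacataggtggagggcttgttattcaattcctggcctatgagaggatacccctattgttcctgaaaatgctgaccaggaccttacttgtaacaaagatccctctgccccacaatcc
Clec11a: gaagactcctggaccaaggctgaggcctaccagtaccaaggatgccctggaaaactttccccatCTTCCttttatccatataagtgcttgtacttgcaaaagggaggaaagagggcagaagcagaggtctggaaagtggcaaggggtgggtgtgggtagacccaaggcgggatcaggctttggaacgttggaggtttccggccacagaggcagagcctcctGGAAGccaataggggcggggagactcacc
Ctla2a: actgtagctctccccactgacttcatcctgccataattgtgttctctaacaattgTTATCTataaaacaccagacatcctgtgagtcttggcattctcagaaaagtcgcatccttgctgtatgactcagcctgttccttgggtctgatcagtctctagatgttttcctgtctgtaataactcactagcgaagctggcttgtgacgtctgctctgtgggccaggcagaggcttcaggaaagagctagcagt
Capn2: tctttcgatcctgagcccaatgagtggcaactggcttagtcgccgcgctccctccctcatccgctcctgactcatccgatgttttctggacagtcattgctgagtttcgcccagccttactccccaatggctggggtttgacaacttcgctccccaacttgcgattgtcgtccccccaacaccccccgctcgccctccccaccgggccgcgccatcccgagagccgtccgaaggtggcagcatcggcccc

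The windows of Tek and Capn2 held none of the 3 words. Clec11a had GGAAG at 186 to 182 bases before the start on the minus strand and at 29 to 25 bases on the plus strand, and Ctla2a had AGATAA at 195 to 190 bases on the minus strand. RefSeq entries were found for 6 of the 9 members, with 7 windows in all, and TGTGGT occurred in 0 of the 7, GGAAG in 3 (6 matches in Tie1, 2 in Clec11a and 1 in a second Ctla2a window) and AGATAA in 1. Over 32851 promoter windows of the same length, 14% held TGTGGT, 64.1% GGAAG and 9.99% AGATAA. GC content was 51.2% in the Tek window, 55.6% in Clec11a, 46.8% in Ctla2a and 62.8% in Capn2, against a median of 52.4% over all windows. A match describes letters only, and no match says only that the word is not in this window.

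Total expected counts ran from 12.26 M (secondary disease replicate 4) to 39.42 M (spleen control replicate 3; M, mega-counts). Cbfb, which carries the first part of the fusion, measured 119 to 139 CPM in bone marrow control against 90.1 to 96.9 with doxycycline, and 124 to 144 CPM in spleen control against 54.3 to 119 with doxycycline, while Myh11 had 0 to 9 counts throughout. The spleen doxycycline libraries did not resemble each other. A list of 15 erythroid genes summed to 6915, 91071 and 43122 CPM in spleen doxycycline replicates 1, 2 and 3, against 4282 to 6427 in spleen control, 3548 to 5809 in bone marrow control, 51036 to 63595 in bone marrow doxycycline and 5468 to 8180 in secondary disease. Secondary disease replicate 4 was the shallowest library and held the fewest endothelial genes at the floor of 3 counts, as described next. Several results that rest on these libraries are given with and without them.

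The name of the group was checked against genes that define endothelial cells. Of 24 such genes, including Cdh5 (VE-cadherin), Cldn5, Emcn, Robo4 and Sox17, only Kdr averaged at least 10 CPM, and 6 had no more than 3 counts in any of the 16 libraries (Flt4, Sox17, Sox18, Robo4, Aplnr and Gpihbp1). Cdh5 had 0 to 5 counts. Kdr, the VEGF receptor that is also found on some blood progenitors, averaged 67.1 ± 23.5 CPM in the 3 marrow controls (SD) and 27.2 ± 1.67 in the 3 spleen controls. The list summed to 50.1 to 102 CPM in bone marrow control, 39.1 to 56.2 in bone marrow doxycycline, 27.2 to 29.5 in spleen control, 9.37 to 35.6 in spleen doxycycline and 33.5 to 74.1 in secondary disease. Between 18 and 22 of its genes were at 3 counts or less in 15 libraries, and 8 were in secondary disease replicate 4. The members were therefore measured in GFP-sorted cells in which most defining endothelial genes were near 0, and they are called endothelial-type only for where they are best known.

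**Figure D1:**
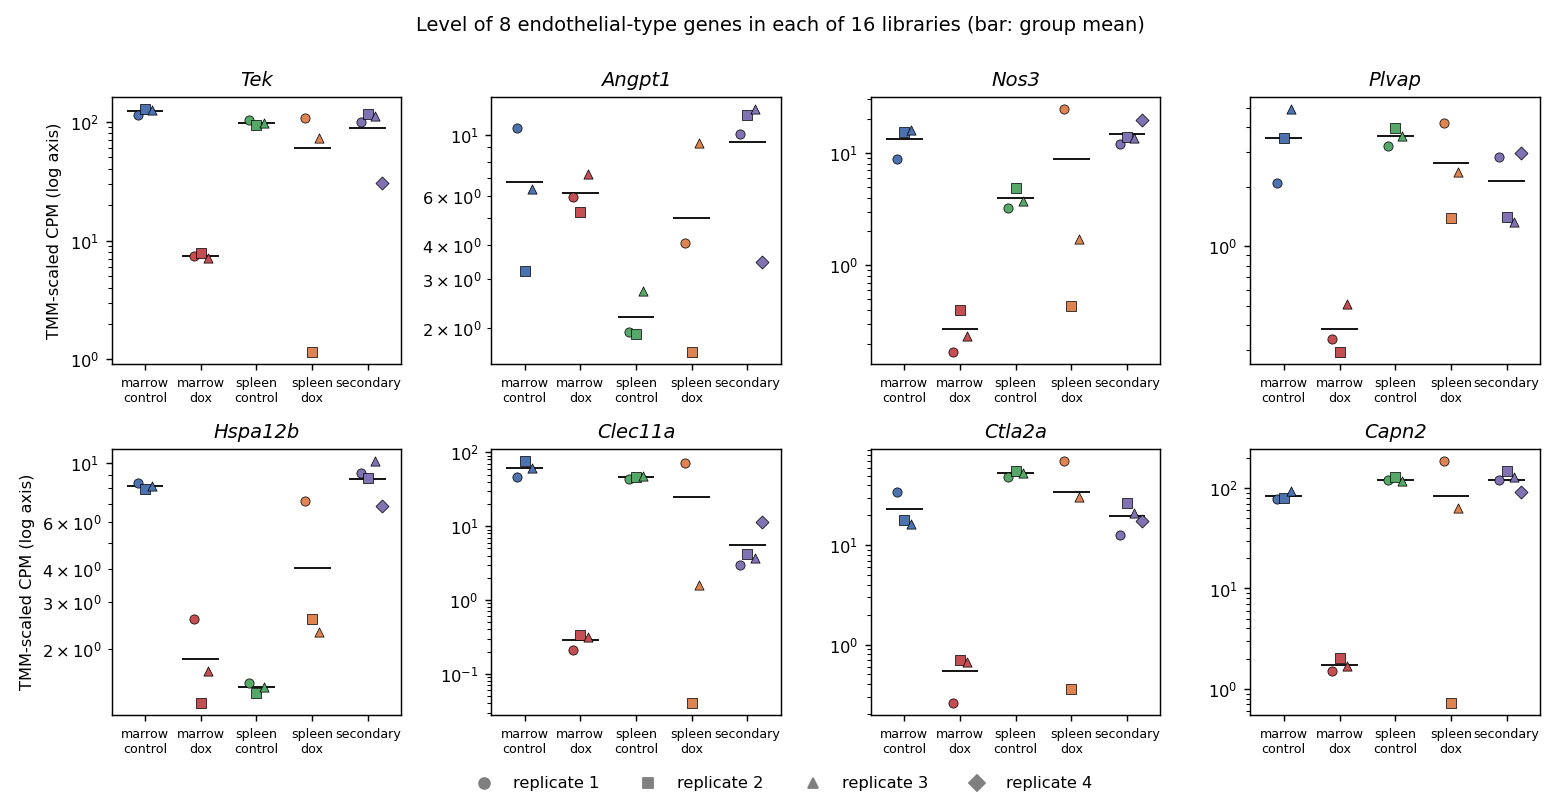
TMM-scaled CPM (log axis) of the 8 members with enough counts to test, in each of 16 libraries of 5 groups; points are libraries, shaped by replicate number, and bars are group means. In bone marrow, 7 genes stood lower in all 3 doxycycline libraries than in all 3 controls, Angpt1 overlapped, and spleen doxycycline replicate 1 stood at or above its controls for all 8 while replicate 2 stood far below them for most.

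Levels between genes were compared in TPM, which accounts for transcript length. Spleen control cells held most Ctla2a (76.6 ± 2.51 TPM, SD, n = 3), then Capn2 (53.8 ± 1.40), Tek (30.5 ± 2.57) and Clec11a (22.0 ± 1.5), and none of these 4 overlapped its neighbour in the order. Plvap followed at 2.70 ± 0.144 TPM and Nos3 at 1.32 ± 0.205, and Angpt1 (0.713 ± 0.167) and Hspa12b (0.60 ± 0.0557) overlapped. In bone marrow control the upper 4 could not be ordered beyond their spread, since Tek ranged from 32.6 to 42.6 TPM, Capn2 from 31.9 to 44.9, Ctla2a from 23.7 to 47.3 and Clec11a from 20.4 to 33.7. The other members were again about an order of magnitude lower there, with Nos3 at 4.43 ± 1.57 TPM, Hspa12b at 3.43 ± 0.559, Plvap at 2.64 ± 1.3 and Angpt1 at 2.16 ± 1.15. Bone marrow doxycycline cells had a different order: Tek (1.92 ± 0.189 TPM) and Angpt1 (1.71 ± 0.252) overlapped at the top, and Clec11a (0.113 ± 0.0208) and Nos3 (0.0767 ± 0.0289) stood lowest among the 8.

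Tek, the angiopoietin receptor, measured 115, 127 and 126 CPM in the 3 bone marrow controls and 7.38, 7.81 and 7.07 CPM in the 3 bone marrow doxycycline libraries. The doxycycline libraries were close to each other and lay 16.5-fold below the controls by their means. In RNA from sorted populations, fewer cells that express a gene and less RNA per cell cannot be told apart, here and for every value that follows. Tek measured 103, 93.9 and 97.6 CPM in the spleen controls, and 106, 1.16 and 73.4 CPM in spleen doxycycline replicates 1, 2 and 3. Replicate 1 was above all controls, replicate 3 below them and replicate 2, with 29 counts, lower than every bone marrow doxycycline library. The fitted log2 fold change was −0.70 ± 0.84 (approximate SE, edgeR quasi-likelihood test, adjusted p = 0.823), with an approximate 95% interval from −2.34 to 0.94. Without spleen doxycycline replicate 1 it was −1.40, and without replicate 2 it was −0.13. Here and below p is adjusted over all genes tested, and a gene is called when it is under 0.05. Secondary disease held 99.6, 115, 112 and 30.5 CPM, so that 3 of 4 libraries were within or just above the spleen control range and replicate 4 was below it. The log2 fold change against spleen control was −0.13 ± 0.78 (edgeR adjusted p = 0.963, interval −1.66 to 1.39), and without secondary disease replicate 4 it was 0.15.

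Tie1, the second receptor of the family, was at or near the floor in these cells and did not pass the filter on low counts. It had 9, 1 and 3 counts in the marrow controls, 4, 3 and 2 with doxycycline, and 3, 0 and 0 in spleen control. No count was seen in any spleen doxycycline or secondary disease library. A difference of Tie1 between groups was not detectable at this depth.

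Angpt1, the ligand of Tek, did not follow its receptor. It measured 10.6, 3.22 and 6.35 CPM in bone marrow control and 5.97, 5.27 and 7.19 CPM with doxycycline, so the groups overlapped and the means differed 1.09-fold. Spleen controls held less, 1.94, 1.89 and 2.73 CPM, and the spleen doxycycline libraries held 4.05, 1.64 and 9.33 CPM. Replicates 1 and 3 were above every spleen control and replicate 2 below every one. Their log2 fold change was 1.19 ± 0.59 (edgeR adjusted p = 0.451, interval 0.03 to 2.35). In secondary disease Angpt1 reached 10.1, 11.8, 12.4 and 3.47 CPM, all above the spleen controls and 4.32-fold their mean. That difference had a log2 fold change of 2.11 ± 0.59 and missed the threshold in edgeR (adjusted p = 0.0927, range over the alternatives 0.00199 to 0.35). Without secondary disease replicate 4, the lowest of the 4, it passed with a log2 fold change of 2.38 (edgeR adjusted p = 0.0232).

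Nos3, the endothelial nitric oxide synthase, measured 8.77, 15.2 and 16.0 CPM in the bone marrow controls and 0.171, 0.405 and 0.237 CPM under doxycycline, a 49.3-fold difference of means. The doxycycline libraries rested on 4.4 to 11 counts each. Spleen controls held 3.26, 4.90 and 3.73 CPM, and the spleen doxycycline libraries 24.3, 0.439 and 1.72 CPM. The first was 6.13-fold the control mean and the other 2 were below every control. The log2 fold change of 1.16 ± 0.90 (edgeR adjusted p = 0.689) was set by that library: without spleen doxycycline replicate 1 it was −1.88 (edgeR adjusted p = 0.0394). Secondary disease held 12.01, 13.9, 13.5 and 19.6 CPM, all above the spleen controls and within or above the range of bone marrow control. Its log2 fold change against spleen control was 1.89 ± 0.88, which did not pass (edgeR adjusted p = 0.329, interval 0.17 to 3.62).

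Plvap, the diaphragm protein of vessel walls, was low in these cells. It measured 2.08, 3.5 and 4.90 CPM in bone marrow control and 0.341, 0.295 and 0.513 CPM with doxycycline, 9.09-fold lower by the means. These bone marrow doxycycline libraries held 8 to 13 counts each. Spleen controls held 3.21, 3.95 and 3.61 CPM and the spleen doxycycline libraries 4.17, 1.40 and 2.36 CPM, again with replicate 1 above and replicates 2 and 3 below all controls. edgeR gave a log2 fold change of −0.44 ± 0.48 (edgeR adjusted p = 0.803, interval −1.38 to 0.5). Secondary disease libraries held 2.82, 1.41, 1.33 and 2.95 CPM, all below the spleen controls, with a log2 fold change of −0.76 ± 0.45 that did not pass (edgeR adjusted p = 0.48, interval −1.64 to 0.12). These values rest on 34 to 68 counts per secondary disease library.

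Hspa12b, the HSP70-like gene of endothelium, was the member whose doxycycline libraries all stood below the controls in bone marrow and above them in spleen. Fitted log2 fold changes also had opposite signs for Nos3 (−5.58 in bone marrow and 1.16 in spleen) and Angpt1 (−0.13 and 1.19). Their spleen doxycycline libraries lay on both sides of the controls. Hspa12b measured 8.36, 7.93 and 8.14 CPM in the bone marrow controls and 2.60, 1.25 and 1.66 CPM under doxycycline, 4.42-fold lower by the means. Spleen controls held little of it, 1.495, 1.37 and 1.45 CPM, which is within the range of the bone marrow doxycycline libraries. With doxycycline the spleen libraries held 7.16, 2.59 and 2.31 CPM, all above every spleen control. The log2 fold change of 1.48 ± 0.41 did not pass in edgeR (adjusted p = 0.109, range over the alternatives 0.01 to 0.43). Secondary disease held 9.11, 8.71, 10.2 and 6.85 CPM, 6.05-fold the spleen control mean and near the bone marrow controls. This difference passed, with a log2 fold change of 2.59 ± 0.41 (edgeR adjusted p = 0.0058, interval 1.79 to 3.39, higher in 4 of 4 libraries). Its adjusted p rose to 0.0522 without spleen control replicate 2, the setting in which it missed the threshold, and the log2 fold change stayed between 2.51 and 2.70 over the alternatives. Hspa12b was already known from these data for its opposite values in the 2 tissues, which include the spleen controls, so this test is not independent of how the gene came to be chosen.

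Clec11a, the progenitor growth factor, measured 45.7, 76.8 and 62.2 CPM in the bone marrow controls and 0.213, 0.331 and 0.316 CPM under doxycycline, where the libraries held 5, 9 and 8 counts, and the means differed 215-fold. Spleen controls held 43.2, 45.8 and 48.5 CPM, and spleen doxycycline libraries 72.2, 0.0399 and 1.59 CPM, the second of these from 1 count. Replicate 1 was thus above all controls, replicate 2 below every bone marrow doxycycline library, and replicate 3 above that group but far below the controls. The log2 fold change was −0.89 ± 1.19 (edgeR adjusted p = 0.848, interval −3.22 to 1.43), and without spleen doxycycline replicate 1 it was −5.85 and passed (edgeR adjusted p = 0.00126). Secondary disease held 2.94, 4.14, 3.75 and 11.3 CPM, each below every spleen control and above every bone marrow doxycycline library. Against spleen control the means differed 8.33-fold and the log2 fold change was −3.08 ± 1.16, which did not pass in edgeR (adjusted p = 0.211, interval −5.36 to −0.81, range of adjusted p over the alternatives 0.0226 to 0.443). With both spleen doxycycline replicate 2 and secondary disease replicate 4 left out, it passed at −3.66 (edgeR adjusted p = 0.034).

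Ctla2a, the cysteine protease inhibitor, measured 34.6, 17.8 and 16.2 CPM in the bone marrow controls and 0.256, 0.70 and 0.671 CPM under doxycycline, 42.2-fold lower by the means. Spleen controls held more than bone marrow controls, 48.7, 56.0 and 53.0 CPM, and spleen doxycycline libraries held 70.5, 0.359 and 30.7 CPM. Replicate 2 lay within the bone marrow doxycycline range, and replicate 3 between that range and the controls. For spleen doxycycline the log2 fold change was −0.63 ± 0.90 (edgeR adjusted p = 0.864, interval −2.39 to 1.12). Without spleen doxycycline replicate 1 it was −1.77 and without replicate 2 it was −0.05, and neither passed. Secondary disease held 12.5, 26.8, 21.1 and 17.7 CPM, all below the spleen controls but around the level of the bone marrow controls, with a log2 fold change of −1.43 ± 0.83 that did not pass (edgeR adjusted p = 0.474). With both libraries that stand apart left out it passed at −1.39 (edgeR adjusted p = 0.0422). The paralogue Ctla2b, which takes part of the shared reads, was lower throughout, at 2.07, 2.71 and 2.43 CPM in spleen control and 0 to 0.119 CPM in bone marrow doxycycline.

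Capn2, the m-calpain subunit, measured 78.0, 78.7 and 93.0 CPM in the bone marrow controls and 1.49, 2.03 and 1.70 CPM under doxycycline, 47.8-fold lower by the means. Spleen controls held 120.1, 128 and 117 CPM and spleen doxycycline libraries 187, 0.718 and 63.3 CPM. The first was above and the third below all controls, and the second was below every bone marrow doxycycline library. Fitted over these libraries, the log2 fold change was −0.54 ± 0.89 (edgeR adjusted p = 0.893, interval −2.29 to 1.21). Secondary disease returned values of 119, 148, 128 and 90.4 CPM, overlapping the controls, with a log2 fold change of 0.00 ± 0.83 (edgeR adjusted p = 1, interval −1.63 to 1.64).

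Counted over the group, 7 of the 8 members with enough counts stood below every control in all 3 bone marrow doxycycline libraries, Angpt1 overlapped, and the median log2 fold change of the 8 was −4.7. Over all 14435 genes tested, 24.6% stood below the controls and 23.1% above them without overlap in this contrast, 6.57% were called (3.96% higher and 2.61% lower), and the median log2 fold change was −0.02. The members were chosen on this contrast, so nothing is read from their count. In spleen doxycycline against spleen control, 0 of 8 were called by edgeR, where 0.741% of all genes were, 1 had an unadjusted p under 0.05, DESeq2 called 1 (Hspa12b) and limma-voom 0. The 8 log2 fold changes were 3 positive and 5 negative, with a median of −0.49 against 0.02 over all genes. For Hspa12b all 3 libraries lay above the controls, as they did for 9.34% of all genes, and the other 7 members overlapped them.

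**Figure D2:**
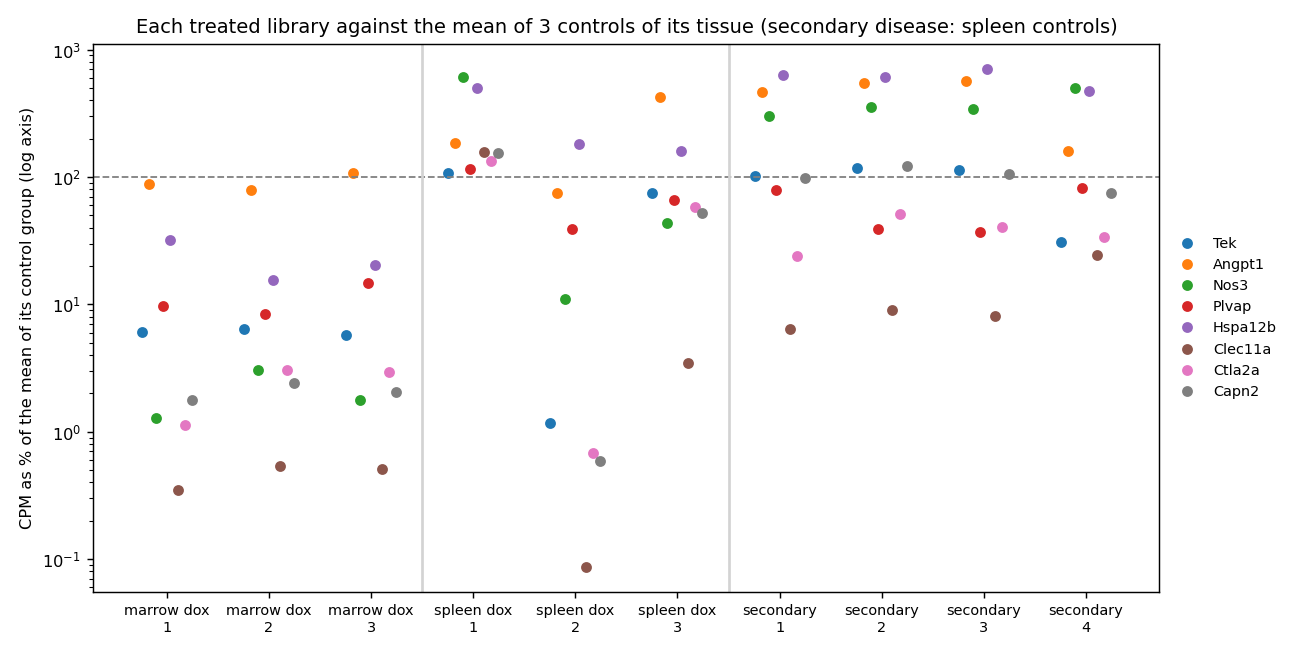
CPM of 8 members in each doxycycline and secondary disease library as a percentage of the mean of the 3 controls of its tissue (log axis; dashed line at 100%; secondary disease against spleen control). The spleen doxycycline libraries had medians of 156%, 6.14% and 61.9%, against 3.9% to 4.71% in bone marrow doxycycline and 78.2% to 120% in secondary disease.

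The overlap in spleen came from libraries that went different ways. In spleen doxycycline replicate 1 all 8 members were above every spleen control, with a median of 156% of the control mean. Replicate 2 had 7 of 8 below and 1, Hspa12b, above, with a median of 6.14%. Replicate 3 had 6 below and 2 above (Angpt1 and Hspa12b), with a median of 61.9%. Of all genes tested, 39.5% were above every spleen control in replicate 1, 41.9% were below every one in replicate 2 and 40.6% in replicate 3. Set against bone marrow doxycycline, replicate 2 was below its range for 4 members (Tek, Angpt1, Clec11a and Capn2), within it for Hspa12b and Ctla2a and above it for Nos3 and Plvap, whereas replicate 3 was above it for 7 and within it for Hspa12b. Over all genes replicate 2 was below that range for 37.8% and replicate 3 above it for 35.6%, and since the members were chosen for low values in bone marrow doxycycline, nothing is read from their counts here. The summed erythroid list stood in the reverse order of these medians over the 3 libraries, as given above, and a megakaryocyte and platelet list of 16 genes stood in the same order, at 1354, 234 and 674 CPM against 798 to 891 in spleen control. A mast cell and basophil list of 8 genes summed to 1058, 154 and 1769 CPM against 1039 to 1122 in spleen control. The part of these cell types in the members' values was not tested.

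Secondary disease did not give the members 1 common direction against spleen control. Of 8, 1 was called higher (Hspa12b) where 0.748% of all genes were called higher and 2.03% in either direction, and 0 were called lower. Angpt1, Nos3 and Hspa12b were above the controls in every library, Plvap, Clec11a and Ctla2a were below them in every library, and Tek and Capn2 overlapped. Of all genes, 8.85% were above and 12.4% below the spleen controls in every secondary disease library. The median log2 fold change was −0.06, against 0.02 over all genes. With spleen doxycycline replicate 2 and secondary disease replicate 4 left out, 4 members were called: Angpt1 and Hspa12b higher, and Clec11a and Ctla2a lower. That fit of the same comparison called 1193 of 14671 genes tested, against 293 of 14435 with all libraries. This comparison shares its controls with that of spleen doxycycline, so the values of both are given side by side and not correlated.

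Against spleen doxycycline, secondary disease had 0 of 8 members called by edgeR, where 0.928% of all genes were, 1 had an unadjusted p under 0.05, DESeq2 called 1 (Hspa12b) and limma-voom 0. All 8 overlapped, with a median log2 fold change of 0.55 against −0.01 over all genes. Hspa12b had 1.11 ± 0.38 (edgeR adjusted p = 0.158) and Clec11a −2.19 ± 1.14 (edgeR adjusted p = 0.343, interval −4.42 to 0.04). The latter turned to 2.75 without spleen doxycycline replicate 1 (edgeR adjusted p = 0.0476), and Nos3 went from 0.74 ± 0.84 (edgeR adjusted p = 0.717) to 3.77 (edgeR adjusted p = 0.00161). The direction for Clec11a and the size for Nos3 thus rested on spleen doxycycline replicate 1.

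**Figure D3:**
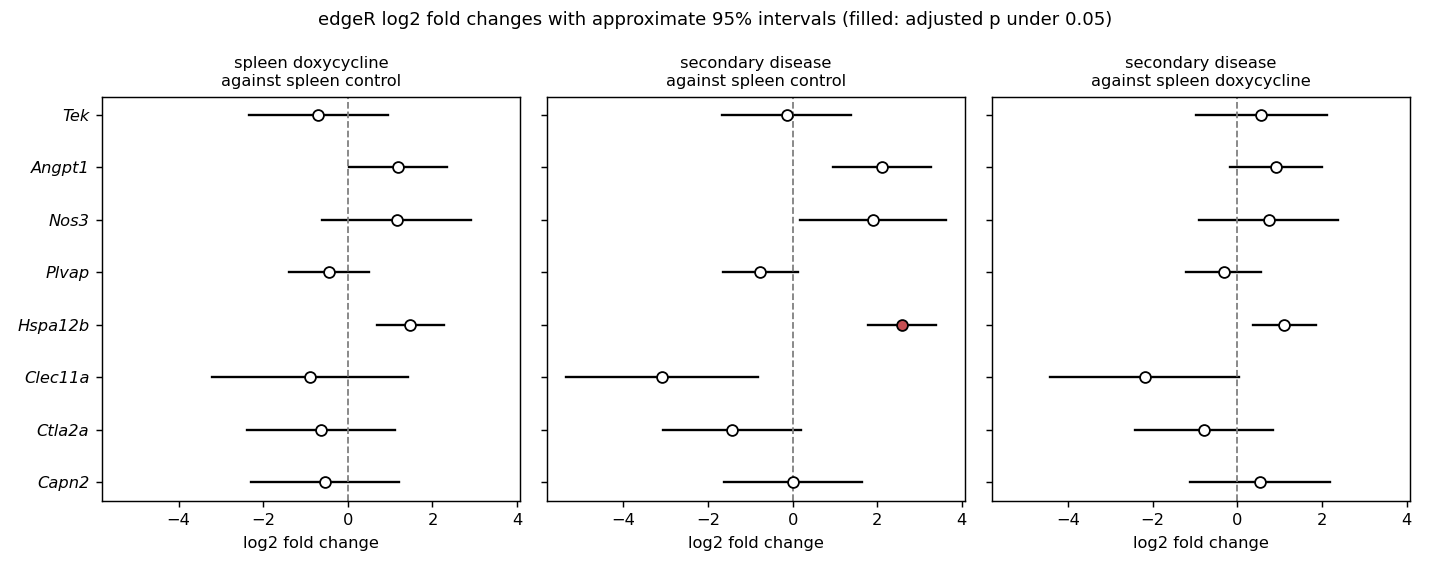
edgeR log2 fold changes of 8 members in the 3 comparisons among spleen libraries, with approximate 95% intervals; filled points have an adjusted p under 0.05. Hspa12b against spleen control in secondary disease (2.59) is the filled point, and the intervals of Tek and Capn2 span 0 in all 3 panels.

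Set against bone marrow doxycycline, and as a description only, secondary disease replicates 1 to 3 were above the range of that group for all 8 members and replicate 4 for 7, Angpt1 being below. Between 35.4% and 36.6% of all genes were above that range in replicates 1 to 3 and 41.9% in replicate 4, and nothing is read from the members' counts, since low values in that group chose them. By their means secondary disease held 12-fold more Tek, 54.4-fold more Nos3, 19.3-fold more Clec11a, 36-fold more Ctla2a and 69.9-fold more Capn2. Against bone marrow control it overlapped for 7 members and was lower for Clec11a, 11.1-fold by the means, where 7.8% of all genes were lower without overlap. The control tissues also differed from each other: spleen controls held 5.66-fold less Hspa12b, 3.36-fold less Nos3, 3.08-fold less Angpt1 and 1.25-fold less Tek than bone marrow controls, and 2.3-fold more Ctla2a and 1.46-fold more Capn2, each without overlap, as 16.5% of all genes were lower and 16.3% higher. Plvap and Clec11a overlapped between the control tissues. The fitted difference of the doxycycline effect between tissues (spleen minus bone marrow) was positive for all 8, from 1.32 for Angpt1 to 6.82 for Clec11a, in a contrast that called 7 genes in all (0.0485%). As this difference contains the bone marrow contrast, it is given without a test.

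**Figure D4:**
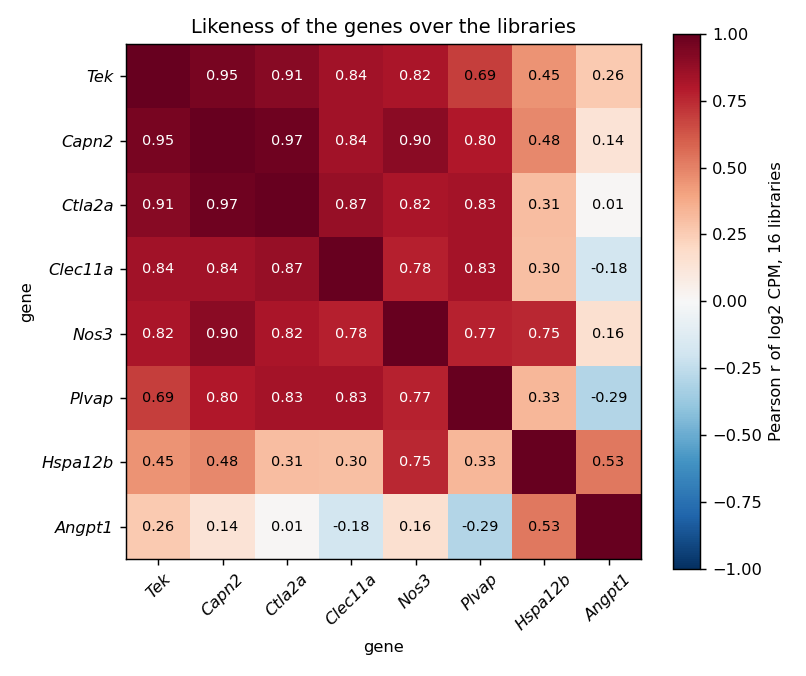
Pearson correlation of log2 CPM between members over 16 libraries (both axes list the 8 genes; colour gives r from −1 to 1). Tek, Capn2 and Ctla2a have the highest values, from 0.91 to 0.97, and Angpt1 the lowest, from −0.29 to 0.53.

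Over the 16 libraries, 11 of the 28 pairs of members had a correlation of log2 CPM above 0.8, as a description of points that share libraries, groups and the doxycycline contrast used to choose them. Ctla2a and Capn2 were the closest pair (r = 0.97), followed by Tek and Capn2 (0.95) and Tek and Ctla2a (0.91). In the 10 spleen libraries alone the same 3 pairs had 0.93, 0.97 and 0.93. Plvap was less like the rest there, with 0.40 to Tek and 0.23 to Nos3, and Hspa12b had 0.15 to Tek and 0.72 to Angpt1. Angpt1 stayed between −0.29 and 0.53 with every other member over all 16 libraries.

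The genes nearest to each member were sought among the tested genes over the same 16 libraries. Predicted genes (Gm and Rik names) and pseudogenes (names with -ps) were left out of that search. Tek ran closest to Gnb4, a G protein β subunit (r = 0.996), Slc18a2, the vesicular monoamine transporter (0.995), Rab27b, a GTPase of platelet and other granules (0.994), Lama4, a laminin chain of vessel basement membranes (0.991), and Erg, an ETS transcription factor of endothelium and blood stem cells (0.989). Capn2 ran closest to the intermediate filament gene Vim (0.994), Panx1 (0.985) and Fxyd5 (0.985), and Ctla2a to Tnfsf14 (0.976), Nucb2 (0.972) and Atp1b3 (0.970). For Nos3 the nearest were the platelet glycoprotein gene Gp1bb (0.966), Appl2 (0.966) and Jade2 (0.964), and for Clec11a Dennd1c (0.959), Tnf (0.953) and Ripor2 (0.948). Angpt1 (Galnt12 and Ppic at 0.921, Wfdc2 at 0.906), Hspa12b (Tfpi at 0.894, Cdc42bpb at 0.890, Grb7 at 0.857) and Plvap (Stab1 at 0.883, Trp53i13 at 0.879, Prkag2 at 0.875) had less close neighbours. All points share library and depth.

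The other genes of the members' pathways were counted in the same comparisons, bone marrow included. All gene lists, here and in the next paragraphs, were chosen with earlier results of these data known. Their calls are therefore not independent of that choice. The calls in bone marrow changed with the libraries in the model, which share 1 estimate of the spread. Over all genes 949 were called, and 23 without bone marrow control replicate 2. With 1 other bone marrow library left out, 111 to 232 were called. With only the bone marrow groups in the model 4929 were called, and 2428 when the spread was taken without secondary disease replicate 4. The calls of the list genes in those last settings are not given here. Of 22 further genes of the angiopoietin and Tie pathway (ligands, adaptors and effectors), 18 were tested: 0 rose and 1 fell in bone marrow doxycycline, with a median log2 fold change of −0.17. The gene that fell was Tnip2, an adaptor known as ABIN-2 (20.6 ± 0.470 to 10.4 ± 1.64 CPM, log2 fold change −0.98 ± 0.25, edgeR adjusted p = 0.0337), while the adaptor Grb7 (−2.51 ± 0.79, adjusted p = 0.073) and Pik3r1 (0.72 ± 0.23, adjusted p = 0.082) did not pass in edgeR. Tnip2 lost its call whichever of the 6 bone marrow libraries was left out (edgeR adjusted p from 0.0806 to 0.14). In spleen doxycycline 0 of 18 passed, Grb7 having 2.92 ± 0.82 (edgeR adjusted p = 0.112). In secondary disease against spleen control 1 rose, Grb7 (3.53 ± 0.81, edgeR adjusted p = 0.0404), an adaptor that binds activated Tek. Grb7 kept that call in 1 of the 7 fits with a library left out (edgeR adjusted p from 0.0305 to 0.21).

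In the nitric oxide pathway 17 of 26 genes were tested, and in bone marrow doxycycline 2 rose and 1 fell, with a median of −0.09. Ass1, which regenerates arginine for nitric oxide synthesis, fell from 125 ± 4.15 to 19.6 ± 3.89 CPM (log2 fold change −2.68 ± 0.56, edgeR adjusted p = 0.0165). Cyb5r3, a reductase of haem proteins, rose from 70.0 ± 7.81 to 159 ± 13.5 CPM (1.18 ± 0.25, edgeR adjusted p = 0.0169), and Nos1ap, an adaptor of the neuronal synthase, from 2.21 ± 0.554 to 7.19 ± 0.839 CPM (1.70 ± 0.48, edgeR adjusted p = 0.0494). With any 1 of the 6 libraries left out none of these 3 calls held, the edgeR adjusted p running from 0.0521 to 0.0879 for Ass1, 0.0563 to 0.0972 for Cyb5r3 and 0.109 to 0.199 for Nos1ap. In spleen doxycycline 0 of 17 passed, Cyb5r3 having 1.09 ± 0.25 (edgeR adjusted p = 0.0595). Nos1ap rose in secondary disease against spleen control (2.05 ± 0.47, edgeR adjusted p = 0.0387), and no other of the 17 passed there. That call held in 2 of the 7 fits with a library left out (edgeR adjusted p from 0.0189 to 0.183).

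Of the 8 genes of caveolae and fenestrae, 5 were tested, and 0 passed in any comparison. Ehd2, a membrane-bending ATPase of caveolae, had 5.06 ± 0.41 CPM in bone marrow control against 0.544 ± 0.231 with doxycycline (log2 fold change −3.20 ± 1.15, edgeR adjusted p = 0.113), and Cavin1 in spleen −0.52 ± 0.28 (edgeR adjusted p = 0.49). The calpain list (subunits, the inhibitor calpastatin and known substrates) had 12 of 13 tested, with a median of −0.01 in bone marrow doxycycline. The cytoskeletal substrate Sptan1 fell there from 338 ± 27.0 to 87.0 ± 9.97 CPM (edgeR adjusted p = 0.0456, 0.105 to 0.154 with a library left out), and had a log2 fold change of −1.13 ± 0.53 in spleen doxycycline that did not pass (edgeR adjusted p = 0.403).

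Genes shared by endothelium and blood progenitors, apart from the members, mostly did not pass. Of 28, 24 were tested, and in bone marrow doxycycline 2 rose, 2 fell and 20 did not pass, with a median of −0.39 against −0.02 over all genes. Gata2, a factor of progenitors and mast cells, rose from 264 ± 28.9 to 679 ± 144 CPM (edgeR adjusted p = 0.0249) and Lyl1 from 123 ± 10.6 to 228 ± 16.3 CPM (edgeR adjusted p = 0.0123). Etv6, an ETS repressor, fell from 138 ± 10.2 to 41.9 ± 1.26 CPM (edgeR adjusted p = 0.0153), and Erg, from 78.3 to 7.84 CPM by the means, was the other that fell (edgeR adjusted p = 0.0377). With 1 library left out the call of Lyl1 held in 3 of 6 fits (edgeR adjusted p from 0.0424 to 0.078) and those of Gata2, Etv6 and Erg in 0 of 6 (from 0.0501 to 0.158 over the 3 genes). In spleen doxycycline and in both secondary disease comparisons 0 of 24 were called by edgeR, with 4, 6 and 4 at an unadjusted p under 0.05. Of the 28 listed genes, 12 averaged at least 10 CPM over the 16 libraries. They were Erg, Fli1, Egfl7, Icam2, Gata2, Lmo2, Tal1, Kit, Hhex, Etv6, Ldb1 and Lyl1. Others of the list were low: Pecam1, Esam and Eng, surface proteins of endothelium and stem cells, averaged below 2 CPM in every group. Among 11 megakaryocyte genes tested, Gp1bb, Treml1 and Rab27b fell in bone marrow doxycycline and 0 rose, and 11 of 15 erythroid genes rose and 0 fell. Over all genes 2.61% were called lower and 3.96% higher there. With a library left out, Gp1bb kept its call in 2 of 6 fits and Treml1 and Rab27b in 0. Of the 11 erythroid genes 5 (Alas2, Hba-a1, Hba-a2, Hbb-bs and Hbb-bt) kept theirs in 3 to 5 of 6 and the other 6 in 0. In spleen doxycycline 6 erythroid genes rose and the megakaryocyte gene Itgb3 fell, where 0.741% of all genes were called. Each kept its call in 1 of 6 fits. In secondary disease 5 erythroid genes fell against spleen doxycycline (0.928% of all genes called), and Itgb3 fell against spleen control (2.03%).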

How the data were processed

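RNA of 16 sorted samples was sequenced after oligo-dT enrichment (NEBNext Ultra II, per the labels' protocols). The authors deposited expected counts, estimated per gene and not always whole (5.8 to 10.8% of values in a library were not), and a TPM file per library. STAR, RSEM, Trim Galore, FastQC, MultiQC and GRCm38 are named, without roles, per the submitters' processing notes. Each of the 16 TPM files matched its own count column best (lowest r = 0.885). TPM served for levels between genes.

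Expected counts were rounded and tested with edgeR 4.0.16 (R 4.3.3; quasi-likelihood, robust) after filterByExpr and TMM scaling, all 16 libraries in 1 model with a mean per group. The filter left 14435 genes, including 8 members. P-values are two-sided, Benjamini-Hochberg adjusted over the 14435 genes, and called under 0.05. SE is the size of the log2 fold change divided by the root of F. Intervals use a normal approximation, which makes them narrower than the F test would, so an interval can leave out 0 where the test does not pass. A floor of 3 counts was used. Replicates differed by a chi-square per degree of freedom of at least 7.87, so no pair was within sampling noise.

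The members and all gene lists were chosen with earlier results of these data known. Named genes are the members, the 3 list genes with the smallest p in bone marrow or in spleen, the genes that passed, abundant markers, and the nearest genes by Pearson r of log2 CPM. Of a list's other genes, those named outside this rule (Cldn5, Emcn, Pecam1, Esam, Eng) were chosen after their values were seen. Promoter windows are from RefSeq. The steps were tested on simulated counts. Alternatives were DESeq2 1.42.0, limma-voom (limma 3.58.1), other size factors, other filters, a replicate block, fewer groups and leaving out libraries. The result of 1 gene of the calpain list is not reported here.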

Additional observations from a re-analysis of the deposited data

Results flagged for a closer look

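Clec11a in secondary disease stood at 2.94, 4.14 and 3.75 CPM in 3 libraries and at 11.28 CPM in replicate 4, a gap to the others that is large for a group of 4. By the nominal rate of the limit used, which was not measured in these data, such a gap arises by chance in about 1 in 20 groups. In this group of 4 libraries 8 members were examined, the other groups being too small. Clec11a was not the only member apart in replicate 4. Tek stood at 30.5 CPM there, against 99.6, 115 and 112 CPM in replicates 1, 2 and 3. Angpt1 stood at 3.47 CPM, against 10.1, 11.8 and 12.4 CPM. Ctla2a, at 17.7 CPM, lay within the 12.5 to 26.8 CPM of replicates 1 to 3. Replicate 4 is also the shallowest library, at 12.26 M (mega-counts), and held only 8 of 24 endothelial genes at 3 counts or less, against 21 to 22 in the other 3 secondary disease libraries. It held 144.3 CPM of a monocyte and macrophage list, against 12.89 to 47.53 CPM in the other 3, and 4 of 15 stroma genes at 3 counts or less, against 11 to 12. Their part in the Clec11a value was not tested. All 4 values lay below the spleen controls, so the direction against spleen control did not depend on replicate 4.

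The values of Hspa12b under doxycycline pointed opposite ways in the tissues: its log2 fold change was −2.15 for bone marrow and 1.48 for spleen, a difference of 3.63. The spleen value did not pass (edgeR adjusted p = 0.109), and without spleen doxycycline replicate 1 it was 0.76. All 3 bone marrow doxycycline libraries were below every bone marrow control, and all 3 spleen doxycycline libraries were above every spleen control. The gene was chosen with this contrast known, so the difference is a description.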

How the results depend on the processing

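Of the members' values in the spleen comparisons under the alternatives, 320 kept their direction and side of the threshold, 17 newly passed, 1 no longer passed and 19 turned sign. In bone marrow, where no threshold was applied, 110 kept their direction and 2 turned sign, both of Angpt1. The cause was not tested. Counting precision limits Tie1 and, in the doxycycline groups, Clec11a, Nos3, Ctla2a and Plvap, and 3 or 4 libraries per group limit all tests. DESeq2 gave no adjusted p for Nos3. Other size factors and a mean count of at least 50 kept every count of genes or members called within 1.5 times.

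Genes called in bone marrow doxycycline (949) became 349 with no filter, 4929 with only the groups compared, 1996 with DESeq2 and 2428 when the spread was taken without secondary disease replicate 4, and 23 to 232 with a library left out. In spleen doxycycline (107) they became 10, 1, 698 and 766 in the same order, 1051 without both libraries that stand apart, and 0 to 1364 with a library left out. Secondary disease against spleen control (293) gave 134 with no filter, 756 with DESeq2, 1193 without both libraries and 61 to 523 with a library left out. Against spleen doxycycline (134) it gave 26 with no filter, 0 with only the groups compared, 866 with DESeq2, 66 with limma-voom, 1164 without both libraries and 0 to 1336 with a library left out. The difference between tissues (7) gave 2 with no filter, 23 with only the groups compared, 248 with DESeq2, 34 with limma-voom, 105 with the spread taken without secondary disease replicate 4 and 0 to 645 with a library left out. The choice to leave out both libraries was made after seeing the data.

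Members called in spleen doxycycline (0) became 1 with DESeq2 and 1 with the spread taken without secondary disease replicate 4 (Hspa12b in both), 2 without both libraries (Angpt1 and Hspa12b), and 0 to 2 with a library left out, the 2 being Nos3 and Clec11a without spleen doxycycline replicate 1. In secondary disease against spleen control (1) they became 4 with only the groups compared (Nos3, Hspa12b, Clec11a and Ctla2a), 2 with DESeq2 (Angpt1 and Hspa12b), 4 without both libraries, and 0 to 2 with a library left out: 0 without spleen control replicate 2 and 2 without secondary disease replicate 4. Against spleen doxycycline (0) they became 1 with DESeq2 (Hspa12b) and 0 to 3 with a library left out, the 3 being Nos3, Hspa12b and Clec11a without spleen doxycycline replicate 1. Counts or ranges over all genes in these settings are in the paragraph above. The count for secondary disease against spleen control with only the groups compared is not given, so nothing is read from the 4 members there.

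Log2 fold changes that turned sign were, with limma-voom, Angpt1 in bone marrow (0.05), Nos3 in spleen (−0.34), Capn2 in secondary disease against spleen control (−0.02), and Clec11a (0.91) and Ctla2a (0.91) against spleen doxycycline. Without both libraries, Capn2 in spleen was 0.04 and Tek in secondary disease against spleen control 0.15. With a library left out, Angpt1 in bone marrow ran from −0.49 to 0.37, and in spleen doxycycline Nos3 from −1.88 to 1.72 and Capn2 from −1.93 to 0.04. In secondary disease against spleen control, Tek ran from −0.28 to 0.15 and Capn2 from −0.11 to 0.12. Against spleen doxycycline, Plvap ran from −0.63 to 0.17, Clec11a from −2.78 to 2.75, Ctla2a from −1.38 to 0.33, Tek from −0.01 to 1.26 and Capn2 from −0.04 to 1.93.

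The replicate numbers did not pair the samples: correlations of deviations between samples of the same number ran from −0.266 to 0.131. With the replicate number as a block, which gives secondary disease replicate 4 a term of its own and so drops it, 1966 genes were called in bone marrow, 374 in spleen doxycycline, 347 in secondary disease against spleen doxycycline and 39 for the difference between tissues. The block called 2 members in secondary disease against spleen control (Angpt1 and Hspa12b), turned Tek there to 0.17, and changed no other call of a member.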
